A study of Mus musculus with 10 samples.

Results

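The 7 control libraries of this mouse series were described on their own, 7 of the 10 libraries deposited. They were taken by their label alone, and no comparison with the libraries lacking Cdkn1c was made. Of the 53379 genes in the count tables, the 11395 that averaged 10 reads or more across the controls are the measured transcriptome, and 24356 genes had a read in at least 1 library. Each library was made from 400 cells of the neocortex of a single embryo at embryonic day 16 (E16), after papain dissociation. The background was a mix of C57BL/6J and CD1, although the strain label names CD1 alone, and embryos of both sexes were used. All controls were MADM-7 GT/TG;Emx1 Cre/+, with an intact Cdkn1c locus. They carried Emx1-Cre and the MADM (mosaic analysis with double markers) cassettes on chromosome 7, so that rare interchromosomal recombination in the Emx1 lineage labels single cells green, red or yellow. The 3 kinds of labelled cells were sorted together, hence a library pools cells with uniparental disomy of chromosome 7 and cells without it, and parental origin cannot be read from these counts. Emx1-Cre acts in dorsal telencephalic progenitors, so its sorted descendants should hold radial glia, intermediate progenitors and glutamatergic neurons, and should lack interneurons, microglia and vessels, which come from elsewhere.

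The embryonic cortex builds its projection neurons in steps. Radial glial progenitors line the ventricle, keep Pax6 and Fabp7 on, and divide to give either neurons or intermediate progenitors marked by Eomes. Newborn neurons switch on the basic helix-loop-helix factors Neurod1, Neurod2 and Neurod6, migrate along the radial glia and settle in layers, the deep layers first. Cdkn1c, the imprinted cyclin-dependent kinase inhibitor p57KIP2 on chromosome 7, is expressed from the maternal allele and is intact in these cells.

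Genes were named by a rule on level, spread and position in the lists, and list members named beyond it, such as those at 0, were chosen after their values were seen. Levels are given on 2 scales. CPM (counts per 1e6) are the reads of a gene relative to all reads on genes, scaled by edgeR's trimmed mean of M-values (TMM), and serve to compare libraries for 1 gene. TPM (transcripts per 1e6) divide the reads by the summed length of the gene's exons first, and serve to compare genes. Errors are SDs over the 7 libraries, except those of fitted slopes, which are standard errors (SE). The CV is the SD as a percentage of the mean CPM. Depth ran from 1738220 reads on genes in control 5 to 3362487 in control 3, and a count of 0 allows up to 3 reads, which is 0.892 to 1.73 CPM depending on the library. These limits cover counting error only, since reads were not tagged by molecule. The libraries fell into 2 sets by the share of uniquely aligned reads that lay outside annotated exons, which was 13.2 to 16.7% in controls 3, 4 and 5 and 5.47 to 7.44% in controls 1, 2, 6 and 7. The labels name no batch for this split.

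Cdkn1c (chromosome 7, chr7:143458339-143461050, GRCm38) was present in every control. Its level was 100.1, 82.4, 85.3, 105, 66.5, 94.7 and 129 CPM in controls 1 to 7, lowest in control 5 and highest in control 7. The mean was 126 ± 26.2 TPM (SD, n = 7), rank 1332 among all genes by TPM. Reads over exons that 2 genes share on opposite strands were dropped from the unstranded column used here, and adding the strand-specific columns raised the Cdkn1c count 1.90 times, so its level is a lower bound. The added reads can include those of the overlapping gene.

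All 7 markers of the Emx1 lineage passed the filter in depth and were detected in every library. Neurod6, a transcription factor of differentiating projection neurons, had the highest mean level, 2882 ± 371 TPM (SD, n = 7). Fabp7, a fatty acid binding protein of radial glia, followed at 2114 ± 617 TPM and Neurod2, a paralogue of Neurod6, at 450.2 ± 36.3 TPM. Emx1, the dorsal cortical homeobox gene whose locus drives the Cre, stood at 108 ± 27.0 TPM. Tbr1, the T-box factor of early-born neurons, was at 80.1 ± 13.5 TPM, Eomes, the T-box factor of intermediate progenitors, at 65.2 ± 15.6 TPM, and Pax6, the paired-box factor of radial glia, at 19.7 ± 3.42 TPM. With the length of the longest transcript in place of all exons, the Pax6 mean was 39.8 TPM.

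**Figure D1:**
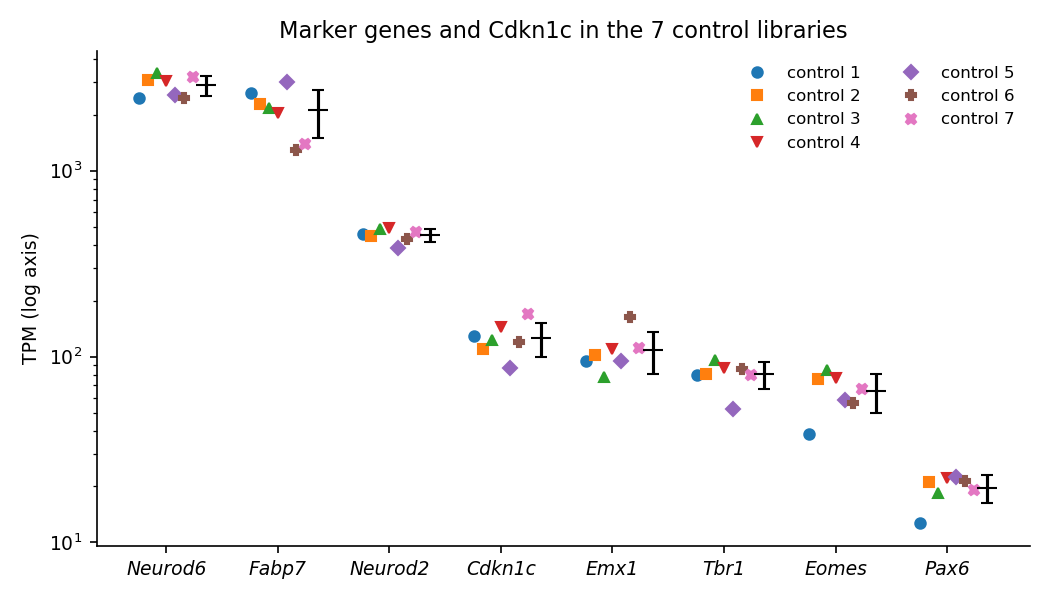
TPM (log axis) of the 7 marker genes and Cdkn1c, a symbol for each of the 7 control libraries, with the mean and SD over libraries as a black bar. Neurod6 (mean 2882 TPM) and Fabp7 (2114 TPM) overlap, and control 1 holds the lowest point for Eomes and Pax6.

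The promoters of these genes differ in how many CpG dinucleotides they hold, a sequence feature that the choice of genes did not use. CpG-rich promoters are typical of housekeeping and many developmental genes, CpG-poor ones of genes restricted to certain tissues. Sequences of 120 bases before the RefSeq start (GRCm38.p6, written 5′ to 3′ on the gene's strand) are printed for Emx1, the CpG-rich case, and for Neurod6 and Fabp7, the most abundant markers, with each CpG in capitals. They lie at chr6:85187811-85187930, plus strand, at chr6:55681264-55681383, minus strand, and at chr10:57784803-57784922, plus strand.

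Emx1: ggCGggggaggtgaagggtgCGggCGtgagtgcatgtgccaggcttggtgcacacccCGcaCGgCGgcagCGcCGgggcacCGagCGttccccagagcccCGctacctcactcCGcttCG
Neurod6: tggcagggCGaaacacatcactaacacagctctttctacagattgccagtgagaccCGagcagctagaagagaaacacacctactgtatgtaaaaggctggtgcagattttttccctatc
Fabp7: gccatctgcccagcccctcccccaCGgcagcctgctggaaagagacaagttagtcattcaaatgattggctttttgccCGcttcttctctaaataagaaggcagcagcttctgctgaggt

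The 120 bases of Emx1 hold 13 CpG, and those of Neurod6 and of Fabp7 hold 2 each. Over the 250 bases before the start, the ratio of observed to expected CpG was 0.842 for Emx1, 0.236 for Neurod6 and 0.214 for Fabp7. Of the 10701 protein coding genes that passed the filter, 8624 (80.6%) were matched to a RefSeq start, and their median ratio was 0.752. The ratio of Fabp7 exceeded that of only 2.76% of these genes, that of Neurod6 3.48%, and that of Emx1 65.4%. Tbr1 (0.406), Eomes (0.621) and Neurod2 (0.632) lay between these, as did the upstream start of Pax6 (0.652), while its second listed start had 1.06. The 18401 other genes of the promoter table, most of them with few or no reads here, had a median ratio of 0.241, so the 2 most abundant markers sat near that value rather than near that of the measured genes. These are descriptions of sequence and draw nothing on regulation.

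Which markers stood above which was tested over libraries. Within each library the log2 difference in level per length was taken for each of the 21 pairs of markers, and a two-sided exact sign-flip permutation test was adjusted over the 21 (Benjamini-Hochberg). The smallest p that 7 libraries allow is 0.015625. In 20 of the 21 pairs the difference held, with adjusted p values from 0.0193 to 0.0492. The exception was Neurod6 over Fabp7, a mean log2 difference of 0.49 ± 0.51 (SD, n = 7) with Neurod6 higher in 5 of 7 libraries (exact adjusted p = 0.0625). With the longest transcript in place of all exons, that difference was -0.01. The neighbours Emx1 and Tbr1 differed by 0.42 ± 0.41 on the log2 scale and Tbr1 and Eomes by 0.32 ± 0.40, each in the same direction in 6 of 7 libraries (exact adjusted p = 0.0492 each). With 1 library left out at a time, 17 to 19 of the 21 pairs held. Neurod2 and Pax6 were as clear as the design allows, 4.53 ± 0.34 on the log2 scale and 7 of 7 libraries.

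Whether libraries rich in neuron markers were poor in progenitor markers was asked by correlating log2 CPM over the 7 libraries, again for 21 pairs. No pair passed after adjustment, the smallest adjusted p of Pearson's r being 0.3875 (exact permutation test over all pairings). At an unadjusted p under 0.05 for Pearson's r there was 1 pair, Neurod6 and Eomes, with r = 0.783 and Spearman's rho = 0.786 (exact permutation p = 0.0185 and 0.0480, adjusted 0.3875 and 0.504). Without the 2 libraries farthest from the median of Neurod6, r was 0.676. Emx1 and Fabp7 had an unadjusted p under 0.05 for rho alone, with r = -0.594 and rho = -0.786 (exact permutation p = 0.159 and 0.0480, adjusted 0.557 and 0.504), and r was -0.994 without the 2 farthest libraries. Fabp7 ran against Tbr1 with r = -0.669 and rho = -0.679 (exact permutation p = 0.0512 and 0.110, adjusted 0.5375 and 0.767), and r was -0.06 without the 2 farthest libraries, so that relation rested on them. Neurod2 and Tbr1 had r = 0.868 and rho = 0.357 (exact permutation p = 0.0972 and 0.444, adjusted 0.557 and 0.998), again lost without the 2 farthest libraries (r = -0.03).

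The measured genes spanned a wide range. Their median level was 19.3 TPM, with 5% of genes below 2.51 and 5% above 285 TPM. There were 119 genes at or above 1000 TPM, 1518 from 100 to 1000, 6090 from 10 to 100, and 3662 below 10. An equal share of reads, 50%, fell on 857 genes and on all others, and the 100 genes with most reads took 21.6%. Of the 21865 protein coding genes in the files 10701 (48.9%) passed, and the remainder of the 11395 were mostly processed pseudogenes (148), lincRNAs (141) and unclassified transcripts that the annotation calls TEC, units still awaiting experimental evidence.

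Cytoskeletal genes led the nuclear transcriptome. Tuba1a, the alpha tubulin of migrating neurons, was the most abundant nuclear gene at 17373 ± 1835 TPM (SD, n = 7). The actin-sequestering thymosins Tmsb4x (13996 ± 1118 TPM) and Tmsb10 (5125 ± 642 TPM), Actb (11545 ± 735 TPM), the neuronal beta tubulin Tubb3 (6494 ± 1070.3 TPM) and Tubb5 (6141 ± 834 TPM) belonged to the same group. Jpt1 (3535 ± 112 TPM) and Marcksl1 (3710.4 ± 366 TPM), a membrane-bound actin regulator, were also among the 15. Nnat, an imprinted proteolipid of developing neurons, reached 5016 ± 349 TPM, and Selenow, a small selenoprotein, 6125 ± 895 TPM. Housekeeping genes filled the other places, with Rpl36 (4431 TPM), Rplp1 (3763), Eef1a1 (3601), Cox6a1 (3890.0) and Cox4i1 (3577). Mitochondrially encoded genes summed to 80919 to 107734 TPM and cytosolic ribosomal protein genes to 60098 to 80249.7 TPM.

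Genes of dorsal forebrain identity were on in every library. All 12 genes of the pallial and forebrain list passed, and their summed level was 1413, 1938, 2614, 1973, 1805, 1738 and 1748 TPM in controls 1 to 7. Sox11, a SoxC factor of newborn neurons, was highest at 637 ± 284 TPM with a CV of 39.6%. Fezf2, the selector of subcerebral projection neurons, followed at 274 ± 69.9 TPM, and Sox4 at 243 ± 48.8 TPM. Lhx2, a LIM homeobox factor that keeps cortical identity, stood at 226 ± 42.9 TPM. Emx2, the paralogue of Emx1, was at 27.9 ± 10.2 TPM, with 10.4 CPM in control 1 and 22.8 to 45.3 CPM in the others. The Sox4 count rose when strand-specific columns were added (2.06 times), so its level is a lower bound too.

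Radial glial genes were detected in nearly full number, 19 of 20 passing the filter. Their summed level was 4602, 4831, 4168, 4380.1, 5786, 3390.5 and 3525 TPM in controls 1 to 7, highest in control 5 and lowest in controls 6 and 7. Fewer cells of a type and less RNA per cell cannot be told apart in such pooled libraries. Fabp7 set much of that order, with 1243, 1052, 928, 912, 1408, 625 and 651 CPM. Dbi, a diazepam binding protein of progenitors and glia, was at 1046 ± 183 TPM, and Hes5, a Notch target that holds progenitors undifferentiated, at 246 ± 51.6 TPM, a lower bound since added strand-specific columns gave 1.75 times the count. Vim (219 ± 47.1 TPM), Hes1 (145 ± 49.8 TPM) and Sox9 (78.0 ± 19.6 TPM) were in the same range. Sox2 (33.0 ± 10.1 TPM) and Nes (11.8 ± 3.17 TPM) were lower per length. Hopx, a marker of outer radial glia, was the member that failed the filter. Id4, an inhibitor of helix-loop-helix factors, had the largest CV of the list, 60.2%, with 172 CPM in control 2 and 36.7 CPM in control 1.

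Intermediate progenitor genes all passed, 14 of 14. Their sums were 967, 1307, 1275, 1614, 1222, 1755 and 1955 TPM in controls 1 to 7. Gadd45g, a growth arrest gene of cells leaving the cycle, led with 356 ± 152 TPM. Neurog2, the proneural factor that starts glutamatergic differentiation, had 305 ± 93.6 TPM, and Sstr2, a somatostatin receptor of this cell state, 258 ± 34.6 TPM. Control 1 was lowest for Eomes (60.1 against 90.8 CPM in the next library), for Neurog2 (121 against 212 CPM) and for Chd7 (20.5 against 43.5 CPM), while Insm1, a zinc finger factor of basal progenitors, was lowest in control 2 (55.3 CPM). Neurog1, the sister gene of Neurog2, was low and the most uneven, 65.7% with 25.3 CPM in control 7 and 4.58 CPM in control 2.

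Cell cycle genes were present at moderate levels, all 20 S phase genes and all 21 G2 and M phase genes passing. The S phase sums were even, 928, 812, 958, 988, 955, 826 and 887 TPM in controls 1 to 7, with a CV of 7.52%. Pcna, the clamp of the replicative polymerases, had 152 ± 22.6 TPM, Dut, which clears dUTP, 141 ± 17.7 TPM, and Rrm2, a ribonucleotide reductase subunit, 116 ± 24.3 TPM. Cdt1, which licenses replication origins, was the least even of them (CV 40.3%). The G2 and M phase sums had a CV of 23.8%, with 1251 TPM in control 5 and 651 to 930.3 TPM in the others. Its most abundant members per length were the mitotic cyclin Ccnb2 (132 ± 36.5 TPM), the ubiquitin-conjugating enzyme Ube2c (131 ± 55.0 TPM) and the chromatin protein Hmgb2 (90.3 ± 17.0 TPM). Top2a, the mitotic topoisomerase, showed 77.8, 66.9, 110.4, 93.9, 168, 60.3 and 59.3 CPM. Mki67, the proliferation antigen Ki-67, showed 40.0, 28.9, 52.0, 30.9, 73.9, 23.4 and 25.6 CPM. Plk1, a mitotic kinase, had the largest CV of the list with 52.2 CPM in control 5 and at most 30.5 CPM in the others. Control 5 was thus the top library for these 3 genes, and it also had the highest radial glial sum, the lowest depth and a share of reads outside exons of 13.2%. In the fit on that share described further on, none of the 3 was called. Slopes on the log2 scale per 10 percentage points were 0.80 ± 0.24 (SE) for Top2a, 0.64 ± 0.31 for Mki67 and 0.23 ± 0.36 for Plk1 (edgeR adjusted p = 0.064, 0.258 and 0.774).

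Genes of newborn and migrating neurons all passed (14 of 14), with sums of 9090.0, 7829, 7718, 7246, 5812, 7317 and 7859.6 TPM that mostly reflect Tubb3. After it came Lzts1, a regulator of neuronal delamination (166 ± 30.1 TPM), and Neurod1, the first of the neuronal Neurod factors (159 ± 52.2 TPM). Unc5d, a netrin receptor of multipolar and upper layer neurons, was even at 105, 89.4, 122, 117, 110.0, 95.7 and 133 CPM (CV 13.7%). Dcx, the microtubule protein doublecortin, had 102 ± 25.1 TPM. Pcp4, a calmodulin-binding peptide, had the largest CV of the list, 48.4%, between 8.60 and 29.1 CPM.

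Projection neuron genes (19 of 19 passing) had a CV of 9.88% for the sum and a median CV of 15.5% over its genes, beside 23.0% over all measured genes. The list was also higher in level, with a median of 80.1 TPM beside 19.3 TPM. Measured genes at 10 to 100 TPM had a median CV of 20.4%, and those at 100 to 1000 TPM 13.4%. Neurod2 was the steadiest marker, 541, 512, 520.3, 548, 452, 528 and 549 CPM (CV 6.44%), and Neurod6 came next, 2012, 2443, 2461, 2327, 2079.7, 2058 and 2576 CPM (CV 9.97%). Gap43, a growth cone protein, had 1272 ± 145 TPM and Stmn2, a microtubule destabilizer of growing axons, 1019 ± 117 TPM. Mapt, the axonal protein tau, had 414 ± 60.7 TPM. The vesicular glutamate transporters were lower, Slc17a6 at 36.4 ± 6.14 TPM and Slc17a7 at 8.85 ± 4.07 TPM, and Slc17a7 ran unevenly from 8.02 CPM in control 5 to 34.7 CPM in control 6.

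The median CV was 23.9% over upper layer and 33.9% over deep layer genes. All 16 upper layer and all 14 deep layer genes passed. Dok5, an adaptor protein, was apart in control 1 with 302 CPM, the others holding 116 to 180.0 CPM. Ptn, a secreted growth factor, had 340.0 ± 73.3 TPM, and Lmo4, a LIM-only factor, was nearly constant (219 to 261 CPM, CV 6.12%). Plxnd1, a semaphorin receptor, had the largest CV of the upper layer list, 60.5%, at low counts. On the deep layer side, Ldb2, a cofactor of LIM homeobox proteins, had 96.2 ± 24.3 TPM, and Nxph3, a neurexin ligand, the largest CV of its list (43.1%). Bcl11b, the factor of corticospinal neurons also called Ctip2, was 99.0, 321, 336, 275, 222, 258 and 156 CPM and lowest in control 1. Rprm, a cell cycle inhibitor expressed in deep layers, was 211, 241, 189, 145, 164, 398 and 246 CPM and apart in control 6. Fezf2 was likewise highest in control 6 (458 CPM), the library in which Emx1 was highest (139 against 58.1 to 91.2 CPM). The summed upper layer level was 1644, 1171, 1553, 1336, 1128, 894 and 1258 TPM in controls 1 to 7. The deep layer sum was 947, 1257, 1277, 954, 940.0, 1575 and 1166 TPM. Control 3 was high in both sums and control 5 low in both, while control 6 had the lowest upper layer and the highest deep layer sum.

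**Figure D2:**
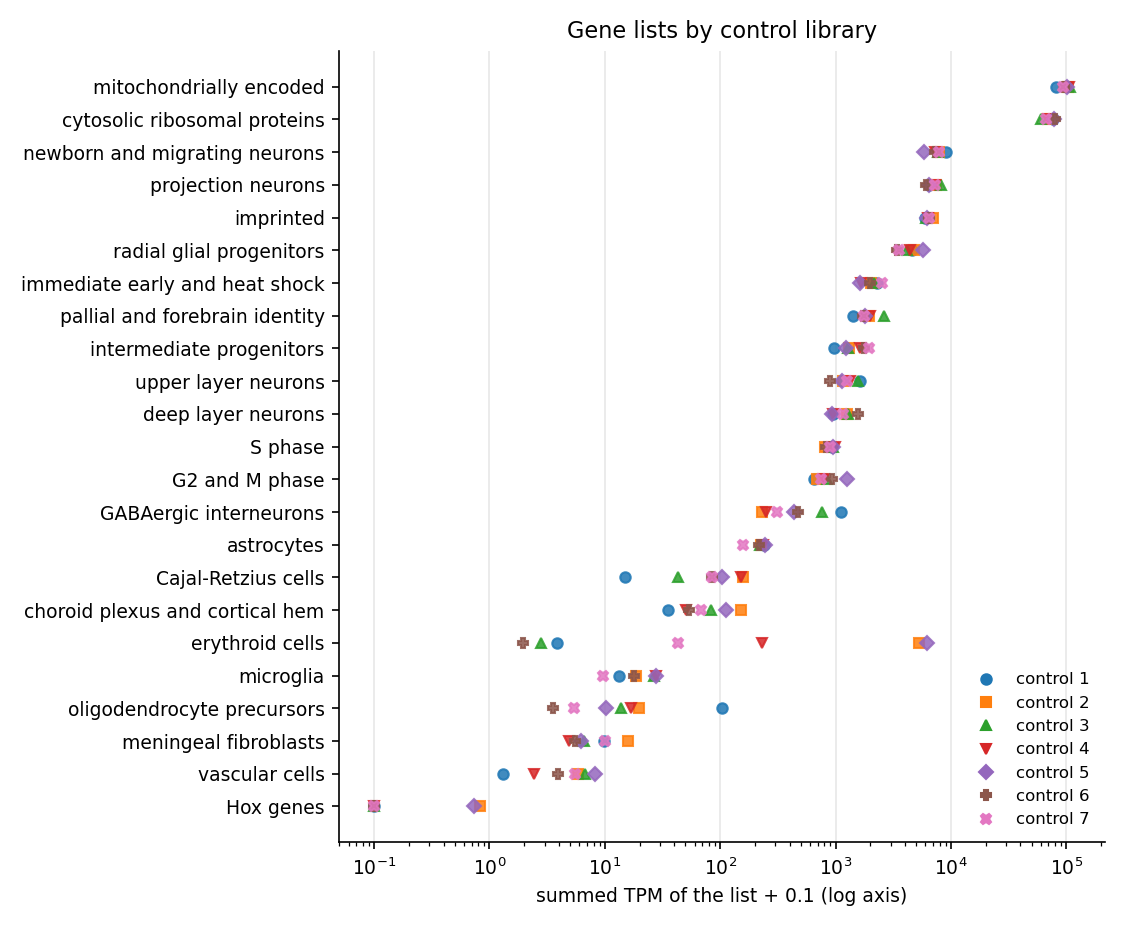
Summed TPM of each gene list plus 0.1 (log axis), a symbol for each control library. Lists of the Emx1 lineage lie within ranges between 651 and 9090 TPM, whereas erythroid, oligodendrocyte precursor and Cajal-Retzius genes spread widely between libraries.

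Imprinted genes were led by Nnat, and 20 of 30 passed. After it came Ndn, a MAGE family gene of the Prader-Willi region (444 ± 66.9 TPM), and Snrpn, a splicing protein of the same region (336 ± 32.3 TPM). Igf2 (mean 0.22 TPM) and Dlk1 (0.023 TPM) were near 0, and Phlda2, next to Cdkn1c, had no read. Kcnq1ot1, the long RNA transcribed from within Kcnq1 in the Cdkn1c domain, was 15.5, 30.3, 58.7, 77.2, 76.2, 16.3 and 27.4 CPM, higher in controls 3, 4 and 5 than in the other 4, and it is taken up again beside the share of reads outside exons. The Gnas level of 14.2 TPM is a lower bound, since its count was 18.2 times larger when the strand-specific columns were added.

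Immediate early genes, which activity and dissociation can induce quickly, were on in every library. Fos was 497, 278, 332, 259, 262, 273 and 520.4 CPM, with controls 1 and 7 above the other 5. Ier2 (307 ± 65.8 TPM) and Dusp1 (254 ± 48.3 TPM) were also high, Fosb (8.25 ± 4.58 TPM) and the neuronal activity gene Npas4 (8.48 ± 5.49 TPM) low. The inducible chaperone Hspa1a had no read and Hspa1b a mean of 0.211 TPM, against 532 ± 37.1 TPM for the constitutive Hspa8.

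Markers of cells outside the lineage were mostly at or near 0. Of 26 Hox genes, which mark hindbrain and spinal cord, 23 had no read in any library and none passed. None of the 12 vascular genes passed, their sum was 1.22 to 8.18 TPM, and Flt1, Tek and Ly6c1 had no read. The 12 microglial genes summed to 9.48 to 27.7 TPM. Of these, 10 had a read and 1 passed, 8 averaged under 1 TPM, and 2, Csf1r and Trem2, were at 0. Meningeal fibroblast genes summed to 4.80 to 15.7 TPM, with Dcn alone passing. Astrocyte genes summed to 156 to 247 TPM, nearly all of it Aldoc (193 ± 28.4 TPM), which radial glia also express, while S100b was at 0 and Gfap and Aqp4 failed the filter. Fgfr3 (13.1 ± 3.88 TPM), Slc1a2 (5.73 ± 2.79 TPM), Gja1 and Aldh1l1 passed as well, and progenitors express these too. Rspo3 (57.1 ± 16.4 TPM), which the cortical hem secretes, made up most of the choroid plexus and hem list, with Kcne2 at 0 and Ttr, the choroid plexus carrier of thyroxine, at 0 to 19.7 CPM (CV 141%).

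Of 17 interneuron genes 7 passed. The summed level of all 17 was 1126, 231, 766, 251, 435, 472 and 312 TPM in controls 1 to 7, highest in control 1, and Npy alone had a mean of 419 ± 357 TPM. Nkx2-1, the factor of the medial ganglionic eminence, had no read. Dlx1, a homeobox factor of interneuron precursors, was 15.8, 3.17, 7.60, 2.89, 12.0, 3.19 and 5.97 CPM in controls 1 to 7, highest in controls 1 and 5. Its paralogue Dlx2 was 10.1, 7.75, 5.84, 4.50, 4.58, 2.13 and 1.75 CPM, highest in control 1. Gad2, an enzyme of GABA synthesis, ran from 0.709 CPM in control 6 to 8.02 CPM in control 5. Npy, a neuropeptide, had the highest level of the list, 232, 31.3, 136, 32.5, 34.4, 98.6 and 48.8 CPM in controls 1 to 7, highest in controls 1, 3 and 6. Sst, another neuropeptide, was 1.44, 13.4, 6.13, 18.3, 61.3, 1.42 and 16.5 CPM and highest in control 5. Lhx6, a marker of many interneurons that make these peptides, stayed at 0 to 9.17 CPM.

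Oligodendrocyte precursor genes were apart in control 1. Olig1 was 70.2, 9.15, 1.46, 6.11, 2.87, 0 and 0 CPM and Olig2 9.36, 1.06, 3.51, 1.29, 0, 0 and 1.40 CPM in controls 1 to 7, while Pdgfra (0 to 2.87 CPM) and Sox10 (0 to 0.36 CPM) stayed near 0 in all libraries. The sum of the list was 103 TPM in control 1 and at most 19.7 TPM in the others. Both Olig genes are also expressed by ventral and late cortical progenitors.

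Cajal-Retzius genes, of the reelin-secreting neurons of the marginal zone, were detected at low level, 6 of 11 passing. Reln was 9.72, 77.8, 64.3, 68.2, 24.1, 2.84 and 57.6 CPM, low in controls 1 and 6. Calb2, the calcium-binding protein calretinin, was 5.04, 61.3, 4.67, 66.2, 49.3, 45.4 and 33.7 CPM, low in controls 1 and 3. Trp73, the p53 relative that these cells need, was 0.36, 7.39, 3.51, 11.3, 3.44, 0 and 4.21 CPM, at or near 0 in controls 1 and 6. Control 1, lowest for the list (14.9 TPM against 43.0 to 156), was also lowest for Eomes and for Emx2. The most uneven member was Ndnf, a secreted neurotrophic factor, with 0, 14.1, 8.47, 3.86, 0, 0 and 4.91 CPM.

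Globin transcripts were high in controls 2 and 5. Hbb-bs, the adult beta globin, was 0, 581, 0, 28.9, 707, 0 and 5.26 CPM in controls 1 to 7 and Hba-a1, an adult alpha globin, 0.36, 529, 0, 23.2, 641, 0 and 5.97 CPM. Hbb-bt and Hba-a2 had the same order of libraries at the top, 218 and 251 CPM and 135 and 177 CPM in controls 2 and 5. Alas2, the erythroid enzyme of haem synthesis, was 16.2 and 12.0 CPM there and at most 2.57 CPM elsewhere, whereas the embryonic globins Hbb-y and Hbb-bh1 and the band 3 gene Slc4a1 had no read in any library. The summed erythroid level was 5239.9 and 6221 TPM in controls 2 and 5 and at most 231 TPM in the others. Its part in other values of these 2 libraries was not tested.

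Spread between the 7 libraries was modest for most genes. A common biological variation of 24.6% was estimated by edgeR, beside a median CV of 23.0%. It fell with level, from a median of 35.3% below 10 TPM to 20.4% at 10 to 100, 13.4% at 100 to 1000 and 12.7% at 1000 TPM and above. In 624 genes (5.48%) a single library stood apart from the other 6, its gap to the nearest exceeding 0.568 of the range. A CV under 10% was found for 843 genes and one of at least 100% for 65 (0.570%). No 2 libraries were copies of each other, since over 21 pairs the chi-square of their counts was 4.94 to 15.5 per degree of freedom.

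**Figure D3:**
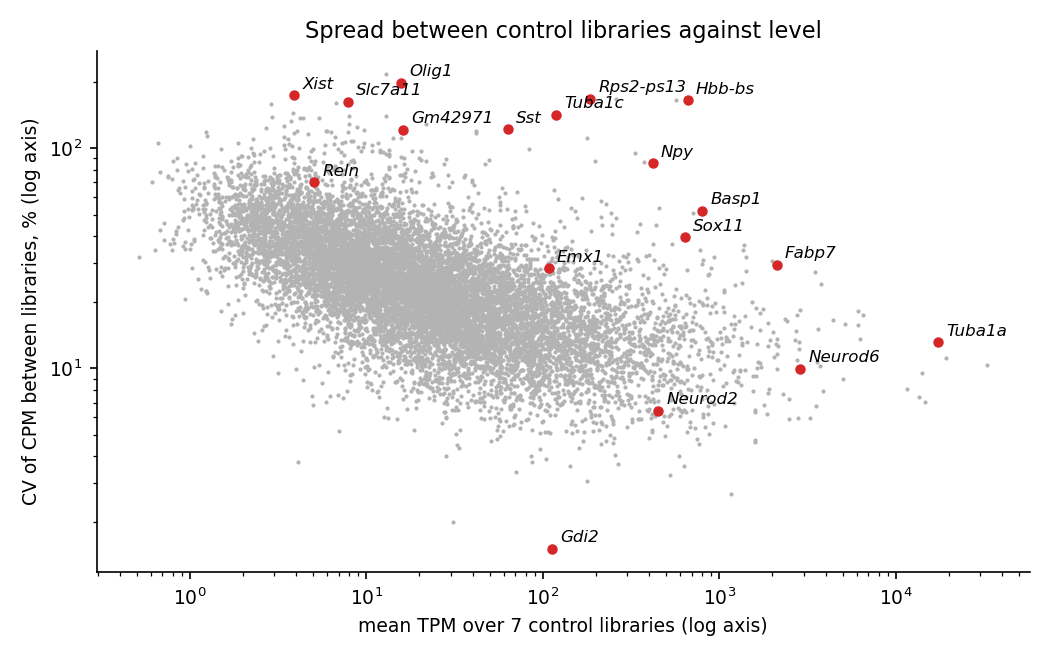
CV of CPM between the 7 control libraries (%, log axis) against mean TPM (log axis), a grey point for each of the measured genes with an exon length and named genes in red. Gdi2 lies at the bottom at 1.52%, and Hbb-bs, Xist, Slc7a11 and Olig1 lie far above the cloud.

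The 10 steadiest genes were taken among those averaging 100 reads or more. Gdi2, which recycles Rab GTPases, was 443, 446, 437, 441, 441, 427 and 432 CPM in controls 1 to 7 (CV 1.52%). Rnf138, a ubiquitin ligase, had 1.93% and Dctn3, a dynactin subunit, 2.76%. Gtf2h5, a subunit of the transcription factor TFIIH, Psmc4, of the proteasome, Elovl5, Pfn1, an actin-binding protein, Scg3, a secretory granule protein, Ppp1r1a and D1Ertd622e completed the 10, with CVs from 3.13% to 3.81%.

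The 20 genes with the largest variance formed a few blocks of libraries. Besides the 4 globins, Slc7a11, the cystine and glutamate exchanger, was 2.16, 1.76, 2.34, 119.6, 1.72, 2.84 and 149 CPM in controls 1 to 7, so that controls 4 and 7 stood apart from the other 5. Tuba1c, an alpha tubulin of proliferating cells, had the same pattern with 15.5, 15.8, 9.06, 258, 25.2, 25.9 and 353 CPM. The near-identical Tuba1a showed none of it, 14286, 10864, 10270.0, 9775, 11312, 12283 and 12334 CPM, and reads that fit both genes equally were dropped by the authors' alignment, so the Tuba1c count rests on the sequence that tells them apart.

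Several processed pseudogenes switched between near 0 and a clear level. Rps2-ps13 was 1.44, 0.352, 1.17, 1.29, 227, 1.06 and 198 CPM in controls 1 to 7, high in controls 5 and 7 alone. Gm1821 was 205, 241, 225, 224, 7.45, 9.22 and 11.9 CPM, high in controls 1 to 4. Gm15772 was 1.44, 65.5, 48.5, 66.9, 2.29, 6.38 and 3.51 CPM, high in controls 2, 3 and 4, and Gm19248 18.9 to 27.7 CPM in controls 3, 5, 6 and 7 and at most 0.322 CPM in the other 3. Such copies share most of their sequence with a parent gene, so the values are uncertain, and the embryos had a mixed strain background while reads were aligned to the reference genome. Whether strain differences bear on these counts was not tested.

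Xist, the RNA of the inactive X chromosome, was 0, 107, 0, 0, 0, 0 and 75.1 CPM, above 0 in controls 2 and 7 alone. The Y-linked Eif2s3y (86.1, 0, 104, 87.5, 86.0, 58.9 and 0 CPM) and Ddx3y (42.1, 0, 44.1, 56.6, 39.0, 24.1 and 0 CPM) had no read in those same 2 libraries and were present in the other 5. Kdm5d and Uty followed the same pattern. The Xist count was 4.13 times larger with the strand-specific columns added, and its antisense partner Tsix overlaps it.

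Basp1, an abundant growth cone protein, was 853, 867, 929.8, 592, 344, 235 and 263 CPM in controls 1 to 7, and controls 5, 6 and 7 lay below the other 4. Abhd17c, a depalmitoylating enzyme of synapses, was 146, 123, 164, 111, 59.6, 17.4 and 47.0 CPM with the same 3 libraries lowest. Npy, Olig1 and Reln, given above, completed the set together with Gm42992 and 5330431K02Rik, both high in controls 3, 4 and 5.

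**Figure D4:**
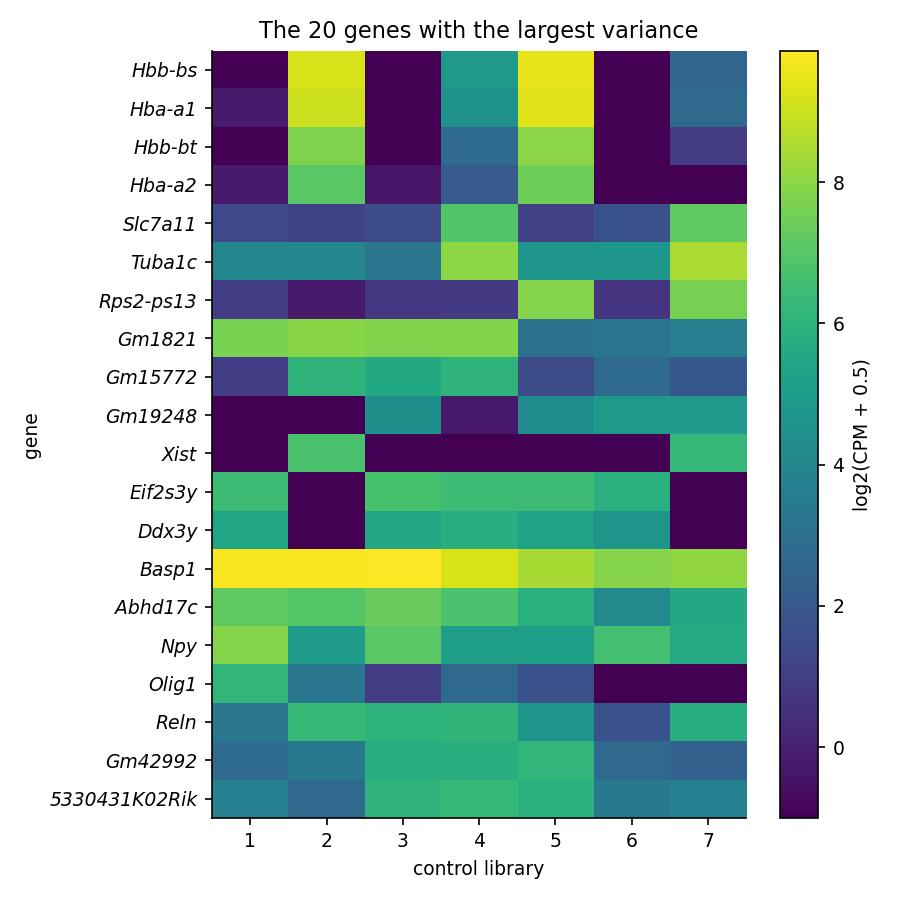
log2(CPM + 0.5) in controls 1 to 7 (columns) of the 20 genes with the largest variance (rows), colour giving the level. Globins are high in controls 2 and 5, Slc7a11 and Tuba1c in controls 4 and 7, and Gm42992 and 5330431K02Rik in controls 3, 4 and 5.

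Principal components were taken over the controls alone. Over the 500 most variable genes, the first component held 40.9% and the second 21.6% of the variance. Scores on the first were -5.01, 1.54, 5.67, 5.53, 6.84, -8.81 and -5.76 in controls 1 to 7. The 3 libraries with the higher share had the 3 highest scores. The 4 adult globins and Gm42992 had the largest positive loadings, while Hmgb1-ps7, Fkbp8, Tmem132a, Abhd8 and Tmem151b made up the negative end. On the second component Npy, Gm1821, Eif2s3y and Ddx3y lay at the negative end, and globins and Rps2-ps13 at the positive end.

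The share of reads outside exons was then fitted to all 11395 genes with edgeR's quasi-likelihood test, as a continuous covariate over the 7 libraries. The slope is the log2 change in level per 10 percentage points of that share. At an adjusted p under 0.05, 374 genes rose (3.28% of those tested) and 96 fell (0.842%), and 2291 had an unadjusted p under 0.05. The count depended on single libraries, being 93 without control 3, 186 without control 6, 202 without control 4, 238 without control 7 and 283 without control 5.

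TEC and sense intronic units, transcripts annotated mostly within the introns of other genes, were called most often among the types. Of the TEC genes 78 were called (60.9%) and of 14 sense intronic genes 8 (57.1%), against 266 of 10701 protein coding genes (2.49%), and no TEC or sense intronic gene fell. The filter used the mean over all 7 libraries, so a unit could pass it through controls 3, 4 and 5 alone. Gm36988, called up, was 1.44, 0, 9.06, 12.9, 2.87, 0 and 0 CPM in controls 1 to 7. These shares can thus be raised by the filter itself. Of the 86 called units, 72 lay wholly inside a protein coding gene, 69 of them on its strand (80.2% of the 86), beside 28 on the strand of such a gene among the 56 units that were not called. The unit with the smallest p, Gm42993 (chr5:132015610-132022934, GRCm38), lies within Auts2, a gene of neuronal migration, and was 6.48, 7.39, 46.2, 47.9, 35.0, 6.38 and 6.67 CPM in controls 1 to 7, with a slope of 2.78 ± 0.28 (SE; edgeR adjusted p = 7.42e-05). Controls 3, 4 and 5 did not overlap with the other 4, which follows largely from picking the unit by its p. Gm42971, inside the ankyrin gene Ank2, was 2.16, 1.41, 35.9, 28.0, 13.8, 1.42 and 1.05 CPM, and 5330431K02Rik, inside the microtubule protein gene Map1b, 13.0, 5.99, 66.6, 76.5, 60.2, 9.93 and 13.3 CPM. Svet1 (chr8:29108837-29112776), a transcript named for the subventricular zone, lies within Unc5d on the same strand and was 5.76, 2.82, 31.3, 35.7, 16.6, 0.355 and 3.51 CPM (slope 3.37 ± 0.40, edgeR adjusted p = 0.00028). Unc5d itself had a slope of 0.14 ± 0.16 (edgeR adjusted p = 0.674).

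The 69 called units on the strand of a coding gene lay in 42 host genes. Auts2 held 9 called units, Ctnna2 7 and Ank2 5. Auts2 rose itself, from 209 to 378 CPM over the libraries (slope 0.61 ± 0.13, edgeR adjusted p = 0.0125), as did Ank2 (177, 188, 328, 262, 251, 133 and 180.0 CPM). Ctnna2, an alpha catenin of neurons, held at 116, 98.2, 106, 112, 110.0, 94.7 and 105 CPM with a slope of 0.08 ± 0.15 (edgeR adjusted p = 0.812). The 42 host genes were picked by their called units. Of these 41 were tested, 37 had a positive slope (median 0.40), 10 rose and 1 fell, beside 3.28% called up and 0.842% called down over all measured genes. The hosts were not matched on genomic span. In the set of longest coding genes described below, 8.08% were called up and the median slope was 0.30.

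**Figure D5:**
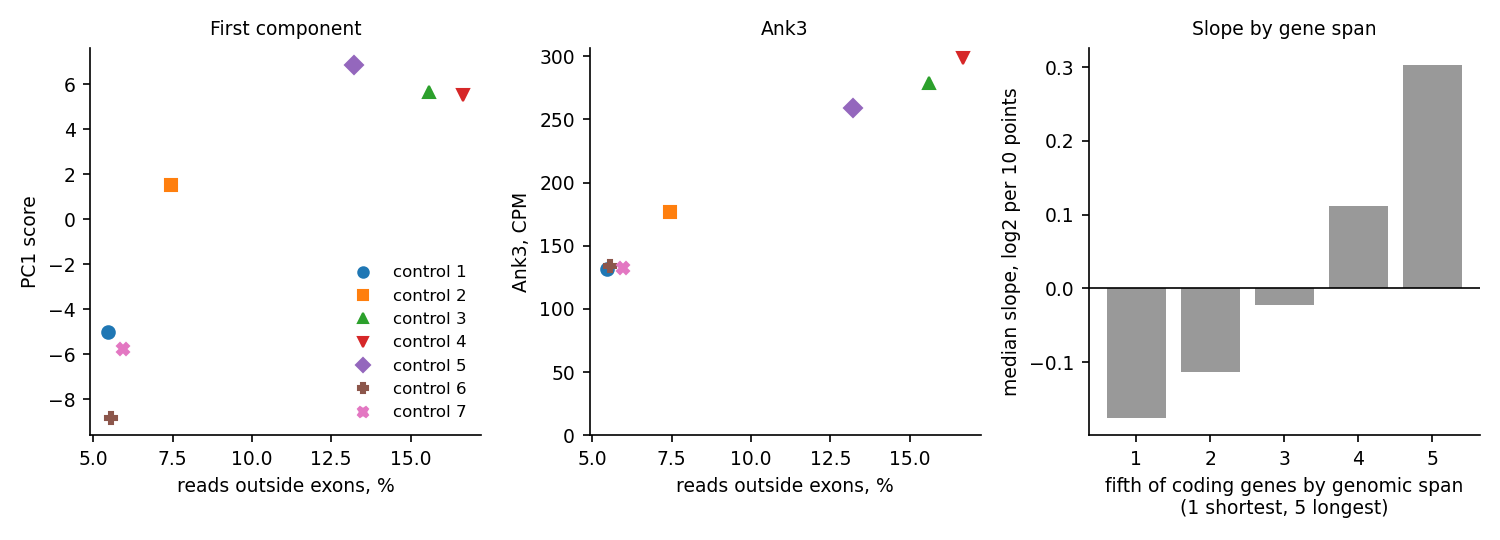
Left and middle, first principal component score and Ank3 level (CPM) against the share of reads outside exons (%), a symbol for each control library. Right, median slope (log2 per 10 points) of protein coding genes in 5 equal sets by genomic span, running from -0.18 in the set of shortest genes to 0.30 in the longest.

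Gene span ordered the slopes of protein coding genes. In 5 sets of equal size from the shortest to the longest span the median slope was -0.18, -0.11, -0.02, 0.11 and 0.30, and the share called up rose from 0.280% to 8.08% while the share called down went from 1.91% to 0.0935%. The median span was 111945 bases for coding genes that rose and 11090 for those that fell, beside 25987 for all tested. Ank3, a large ankyrin of the axon initial segment, was the coding gene with the smallest p, 131, 176, 279, 298, 259, 134 and 132 CPM (slope 1.06 ± 0.13, edgeR adjusted p = 0.000296). Kcnq1ot1 had a slope of 1.73 ± 0.25 (edgeR adjusted p = 0.000995). Among genes that fell, Pink1, a mitochondrial kinase, was 105, 89.1, 61.9, 52.4, 51.6, 114 and 119.7 CPM (slope -0.98 ± 0.17, edgeR adjusted p = 0.00373). Stmn4, a neuronal stathmin, and Hes6, a helix-loop-helix factor of differentiating cells, had slopes of -0.90 ± 0.17 and -0.82 ± 0.16. Ormdl3, Tsen54 and Aldh2 fell as well, and so did Tmem132a and the pseudogene Hmgb1-ps7. The calls of Hes6, Ormdl3 and Tsen54 were lost without control 3, with slopes of -0.74, -0.98 and -1.80, and those of Ormdl3 and Aldh2 without control 4, with slopes of -0.96 and -1.31. The Tmem132a call was lost with the strand-specific columns added (edgeR adjusted p = 0.134), which raised its count 3.74 times. Its slope was then -0.48, against -1.84 in the main fit.

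Calls among the cell state lists stand beside 3.28% called up and 0.842% called down over all measured genes. None of the 7 markers was called, nor was Cdkn1c, with slopes from -0.45 ± 0.21 for Emx1 to 0.34 ± 0.19 for Eomes (edgeR adjusted p = 0.248 and 0.346). Radial glial, intermediate progenitor, upper layer, S phase and G2 and M phase genes held no call in either direction. In the pallial and forebrain list 3 of 12 genes rose, among them Sox11 (slope 0.93 ± 0.16) and Meis2 (0.58 ± 0.12). Among projection neuron genes 2 of 19 rose, the AMPA receptor subunit Gria2 (0.62 ± 0.16) and Nfib (0.58 ± 0.13), and Dcx rose among the 14 migrating neuron genes (0.52 ± 0.12). In the deep layer list of 14 genes Tle4 rose (0.77 ± 0.20) and Rprm fell (-0.77 ± 0.19). Of the imprinted genes 2 of 20 measured rose, Kcnq1ot1 and Meg3 (1.06 ± 0.19). Jun (-0.76 ± 0.21) and Ier2 (-0.59 ± 0.16) fell among the 15 measured immediate early and heat shock genes. Control 3 had by far the most Sox11, 3444 CPM against 1265 to 2157 CPM in the others, and Sox11 is a single-exon gene.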

How the data were processed

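RNA of 400 sorted cells per library was amplified by Smart-Seq2 and sequenced. Per the labels, the authors aligned reads with STAR 2.5.0c to GRCm38 with Gencode M16, keeping unique alignments, and deposited read counts per gene in an unstranded column, used here, and 2 strand-specific ones. Bedtools 2.26.0 is also named. In the unstranded column reads on overlapping genes are dropped. The members and the gene lists were chosen with earlier results of these data known.

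The 11395 genes averaging 10 reads or more were analysed in edgeR 4.0.16 (TMM, quasi-likelihood test, Benjamini-Hochberg) under R 4.3.3. Lengths for TPM came from GENCODE M21, which matched 50604 of 53379 identifiers with their version, 2670 without it and left 105 unmatched. These lengths may differ from those of the authors' annotation. Log ratios of markers used 0.5 added reads. The variance stabilizing transformation of DESeq2 1.42.0 ranked the 500 most variable genes for principal components. The fit was tested on simulated data, where false calls exceeded the nominal share and small changes were often missed, so the number of calls is approximate. Depth was 1738220 to 3362487 reads on genes, and all limits cover counting error only. Each library came from its own embryo.

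Named were Cdkn1c, the markers, in each list the 3 most abundant members, the first 2 and the one with the largest CV, the 15 most abundant nuclear genes, the 20 most variable, the 10 steadiest, the 5 genes at each end of both components, and, for each sign of the slope, the 8 of smallest p. List members beyond that rule, Sst and the genes with a gap of at least 8-fold were picked once values had been seen. Alternatives covered the count column, filters, normalization, gene length, depth, covariates and leaving out each library. The 3 libraries lacking Cdkn1c were not used, and some list members are not reported here.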

Additional observations from a re-analysis of the deposited data

Results flagged for a closer look

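In groups of 7, a library was singled out where its gap to the nearest of the others exceeded 0.568 of the whole range, which chance gives in about 1 in 20 groups. Over all measured genes 5.48% met this, and 12 of 135 named genes did. Control 5 had the fewest reads on genes, 1738220 against 2819458 to 3362487. It was also the lowest library for Neurod2 (452 CPM) and Tbr1 (108 CPM) and the highest for Sst (61.3 CPM). Control 1 had the highest summed level of oligodendrocyte precursor genes (103 TPM against at most 19.7 TPM) and the highest Olig1 (70.2 CPM), Mbp (12.6 CPM), Dok5 (302 CPM), Stmn2 (2630 CPM) and Tubb5 (10011 CPM). Mbp is the myelin basic protein gene, and its other libraries lay at 8.45 to 10.2 CPM, so that its gap was small in size. Control 6 was highest for Emx1 (139 CPM), Rprm (398 CPM) and Dctn3 (475 CPM), and Dctn3 was at 439 to 453 CPM in the others. Control 3 was highest for Sox11 (3444 CPM). Control 7 was lowest for the summed astrocyte genes, 156 TPM against 218 to 247 TPM. Over all measured genes, controls 5, 1, 3 and 6 stood apart most often, for 127, 122, 120 and 106 genes, and control 2 for 37.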

How the results depend on the processing

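The number of genes that varied with the share of reads outside exons was 470. Without a filter on low counts it was 1004 of 24356 genes, and leaving out 1 library at a time it ran from 93 without control 3 to 522 without control 2. Under the 6 other settings it was 331 to 577. Of 219 slopes of named genes recomputed, 213 stayed called in the same direction and 6 lost the call. These genes were picked for the smallest p, so their calls were the least likely to be lost. Over all 470 calls, 88 were shared without control 3 and 420 without control 2, the extremes of leaving out 1 library. The first component held 35.0% of the variance over all measured genes, 35.3% with log2 CPM, and 38.3 to 48.0% without each library in turn. Marker pairs past adjustment for covariation numbered 0, and 0 to 1 without each library, the 1 being without control 3. Neurod6 exceeded Fabp7 by 0.49 on the log2 scale, and by -0.01 with the longest transcript, a setting that also gave means of 2207 TPM for Neurod6, 345 for Neurod2 and 39.8 for Pax6. Neurod6 (2150 bases) and Neurod2 (3142 bases) have the same length under both settings, so only the scaling total changed for them. Fabp7 has 1250 bases of exons and a longest transcript of 880 bases. Neurod2 was at 397 TPM with the strand-specific columns added. Without the filter on low counts the median CV was 64.3%. The order of markers kept 17 to 20 of the 21 pairs. Beyond these lengths and the number of genes that entered under other filters, the cause of these shifts was not tested. Genes below 10 TPM had a median CV of 35.3%, in which counting noise and spread between embryos were not separated, and the 7 libraries are single embryos without a batch label. No paired analysis was possible because the libraries form 1 group, except that markers were compared with each other within each library.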

Other observations

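A search for genes with a gap of at least 8-fold between neighbouring libraries, chosen after the values were seen, found 30 of the 11395. Of these, 6 were pseudogenes, 5 were Xist or Y-linked genes and 4 were adult globins. Gm6969, a processed pseudogene on chromosome 12, was absent from control 2 alone, with 16.1 to 36.7 CPM in the other 6. In 20 of the 30 the libraries did not divide as 1 against 6.

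Lhx9, Lef1, Crabp1 and Cryab were lowest in control 1, for which they were picked after their values were seen. The summed radial glial level of that library, 4602 TPM, lay inside the range of the others. Lhx9, a LIM homeobox factor, was 2.88, 27.1, 25.1, 25.4, 34.4, 31.2 and 26.3 CPM in controls 1 to 7. Lef1, the effector of Wnt signalling, was 0.72, 21.8, 14.3, 12.9, 18.3, 18.1 and 12.6 CPM and Crabp1, a retinoic acid binding protein, 0, 8.45, 7.30, 11.6, 15.5, 15.2 and 20.7 CPM. Cryab, a small heat shock protein, was 3.24, 22.2, 19.3, 18.3, 25.2, 17.4 and 29.1 CPM. Tmeff1, a transmembrane protein, was 292, 336, 347, 257, 132, 90.4 and 158 CPM and Hdgf, a nuclear growth factor, 240.2, 342, 343, 283, 141, 88.6 and 149.9 CPM, both lower in controls 5, 6 and 7, as for Basp1.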
